A study of Homo sapiens with 12 samples.

Results

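Induction of the MELK hairpin sh33 with doxycycline was compared with vehicle in A375 cells, on 3 arrays against 3. The unit was the probe row, one line of the deposited intensity table. A row was kept when its detection p-value, which sets its signal against that of negative controls, was under 0.05 on 3 or more of these 6 arrays. This rule, applied to the non-normalized intensities, kept 20146 of 48107 rows. All rows that passed were used, with or without a gene symbol.

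MELK, the maternal embryonic leucine zipper kinase, is a serine/threonine kinase whose transcript is abundant in proliferating cells and in many tumours, melanoma among them. A short hairpin RNA is cut by Dicer into a small RNA that guides the silencing complex to matching transcripts, and in an inducible line doxycycline switches on the promoter that makes it. Hairpins of different sequence can lower the same target, and each can also lower further transcripts that match its own seed.

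A375 is an established human melanoma line with a mutant BRAF kinase. The line carried hairpin sh33 stably and received doxycycline for 3 days in 3 samples (sh33 doxycycline) or vehicle in 3 samples (sh33 vehicle). A parallel line with hairpin sh31, also against MELK, was treated the same way (sh31 doxycycline and sh31 vehicle, 3 arrays each). Every array thus came from cells with a MELK hairpin, so an effect of doxycycline alone and an effect of the induced hairpin cannot be told apart. The labels do not say whether a line was 1 clone or a pool, nor whether each replicate was a culture of its own. The p-values therefore rest on how far these arrays lay apart, and that spread may be technical.

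All 12 arrays lay on 1 chip, with sh33 doxycycline on other lettered positions than sh33 vehicle, so chip position cannot be told apart from treatment. Mean raw intensity was 283, 310 and 299 units on the sh33 doxycycline arrays, against 325, 320 and 333 units on the sh33 vehicle arrays. The groups did not overlap, and the difference of -28.8 units had an exact two-sided permutation p of 0.1, the smallest that 3 arrays against 3 allow. Normalization removes this difference, whose source was not tested. For the row changes below, bulk RNA cannot tell fewer cells of a kind from less RNA per cell. The number of detected rows overlapped between the groups, at 19640, 20903 and 20030 on sh33 doxycycline arrays and 19533, 20382 and 20715 on sh33 vehicle arrays (exact permutation p = 1). At the edge of the rule, the 1382 rows detected on exactly 3 arrays had a median raw intensity of 107 units, and the 2060 rows detected on exactly 2 had 106 units.

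The identifiers deposited beside the intensities did not follow them, so no gene is named from them. Among kept rows, 1865 pairs that shared a gene symbol had levels with a Pearson r of -0.03 across pairs, whereas sh33 levels against sh31 levels of the same row had an r of 1.00 over 20146 rows. Of the 2 rows deposited under the MELK symbol, ILMN_1731184 was detected on 0 of the 6 arrays. The other, ILMN_2212909, had normalized log2 levels of 5.24, 4.93 and 5.39 on sh33 doxycycline arrays and 5.27, 5.52 and 5.29 on sh33 vehicle arrays, which overlapped. Its log2 fold change was -0.17 ± 0.12 (SE, adjusted p = 0.52 by limma). Knockdown of the target could therefore not be read from these files, and neither could melanocyte or melanoma markers of A375. Identifiers below serve as handles for rows and say nothing of which transcript was measured.

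With doxycycline, 586 rows changed in the sh33 line at a Benjamini-Hochberg adjusted p under 0.05 in limma, which is 2.91% of the 20146 rows tested. More of them fell than rose: 336 were lower with doxycycline (1.67% of rows) and 250 were higher (1.24%). Most called changes were small. Their median absolute log2 fold change was 0.56, the smallest was 0.34, and 52 of the 586 reached 2-fold. Calls made up 379 of the 12561 rows with 1 gene symbol (3.02%) and 207 of the 7585 other rows (2.73%). Since the identifiers did not follow the intensities, this split says nothing of the transcripts measured.

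The direction balance moved with the size of the change. Of the 195 called rows under 0.5 on the log2 scale, 85 were higher and 110 lower. Of the 339 between 0.5 and 1, 147 were higher and 192 lower. Of the 52 at 2-fold or more, 18 were higher and 34 lower, and of the 16 at 1.5 or more on the log2 scale, 4 were higher and 12 lower. No test of this trend was made. The number of 2-fold rows rests on the background correction, since 12 called rows reached 2-fold in the authors' value table, 3 higher and 9 lower, and 27 with a normexp offset of 50, 8 higher and 19 lower. Over all 20146 rows the balance was even, with 50.5% positive and a median log2 fold change of 0.00. Centring each array on its median in place of quantile normalization put 59.1% of rows above 0, through a median shift of 0.04, and 49.0% of called rows above 0 in place of 42.7%.

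Over all rows the changes were small. The median absolute log2 fold change over all rows was 0.12, the 25th and 75th percentiles were -0.12 and 0.12, and 1 row in 100 lay below -0.54 or above 0.52 at each end. The same measure between the sh33 vehicle and sh31 vehicle arrays, where no hairpin was induced, had 25th and 75th percentiles of -0.08 and 0.09, with 1 row in 100 below -0.30 or above 0.33 at each end. An unadjusted p under 0.05 was reached by 3171 rows (15.7%), of which 1491 were higher and 1680 lower. Of rows that were not called, 100 had a log2 change of 0.5 or more in either direction, 53 higher and 47 lower, and 1 of these exceeded 2-fold. For scale, 2 replicate arrays of the same sh33 group differed by a median of 0.12 to 0.18 per row.

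In 4341 rows all 3 sh33 doxycycline arrays lay on one side of all 3 sh33 vehicle arrays, which is 21.5% of rows. They comprised 2101 rows higher with doxycycline and 2240 lower. All 586 called rows were among them. The distance between the nearest arrays of the 2 groups had a median of 0.34 on the log2 scale over the called rows. It exceeded 1 in 28 rows, 20 of them lower and 8 higher with doxycycline.

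The summed squared log2 fold changes of all kept rows, called or not, were not held by a few rows. Rows that were not called bring the spread between arrays into this sum. It therefore does not show how widely the response to doxycycline was spread. The 10 rows with the largest change in either direction made up 4.49% of the summed squared log2 fold changes, the first 100 made up 16.2%, and the first 2015 made up 57.9%.

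Effect size differed between brightness classes. Rows were put into 10 classes of equal size by their mean normalized level over the 6 arrays, from the dimmest (class 1) to the brightest (class 10). Brightness depends on the probe as well as on the RNA, so it is not a transcript level. The median absolute log2 fold change was 0.11 in class 1, 0.14 in class 4 and class 6, and 0.08 in class 10. In the sh31 line it was 0.11, 0.12, 0.10 and 0.07 in classes 1, 4, 6 and 10. Between the sh33 vehicle and sh31 vehicle arrays it was 0.10, 0.09, 0.08 and 0.06 in these classes. The low median of class 10 was therefore not particular to induction of sh33. The share of rows called was 0.794% in class 1 and 0.794% in class 2, reached 4.57% in class 7, and was 2.08% in class 10. The SE of the fold change had its largest medians in classes 2 and 3, at 0.14, and its smallest in class 10, at 0.10. The smallest change that was called differed little between classes, from 0.34 in class 10 to 0.42 in class 4.

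This profile depended on how the background was treated. Without background correction, as in the value table of the authors, the median absolute log2 change was lowest in class 1, at 0.03, and highest in class 8, at 0.10. Class 6 then had nearly the median of class 10 (ratio 0.98), whereas with background correction the ratio was 1.69. With median centring the highest median was in class 1, at 0.17. The middle classes held more calls than the dimmest under each of these settings, since class 7 had 7.99% called against 0.248% in class 1 in the authors' table, and 3.97% against 0.248% with median centring.

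The excess of lower calls was uneven over the classes. In classes 1 to 3, 21 rows were called higher (5, 5 and 11) and 51 lower (11, 11 and 29). Only 0.298%, 24.6% and 88.1% of rows there were detected on all 6 arrays, and some passed the rule through 1 group alone. Their direction is therefore a description and no support. Among called rows detected on all 6 arrays, 234 were higher and 296 lower. Counts of higher and lower calls were 24 and 30 in class 4, 31 and 51 in class 5, and 38 and 52 in class 6. They were 44 and 48 in class 7, and 32 and 54 in class 8. In the 2 brightest classes slightly more rows were called higher, with 37 higher and 31 lower in class 9 and 23 higher and 19 lower in class 10. Whether direction depended on class was not tested. The 52 rows of 2-fold or more were most frequent in class 5, with 16 rows, and none lay in classes 1 and 2. The row of the largest called change was ILMN_1769388 in class 1, which was detected on 0 of 3 sh33 vehicle arrays and was at least 1.31-fold higher with doxycycline. In class 2 it was ILMN_3245282, at 0.73 (adjusted p = 0.0245 by limma), which lost its call in 5 of 13 other settings. From class 3 upward the largest called change was a decrease in 6 of the 8 classes. Examples were -1.23 for ILMN_1672320 in class 3, -1.38 for ILMN_1881472 in class 6 and -1.31 for ILMN_2204297 in class 9. In the authors' value table these changes were -0.41, -0.74 and -1.18. Row ILMN_1672320 was detected on 1 of 3 sh33 doxycycline arrays and 3 of 3 sh33 vehicle arrays, so its lower side lay near the detection limit. An unadjusted p under 0.05 was most frequent in class 6, at 20.7% of rows, and least in class 1, at 8.64%.

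The 2 largest changes among rows detected on all 6 arrays were decreases. Row ILMN_1804611 had normalized log2 levels of 6.69, 6.76 and 6.35 on the sh33 doxycycline arrays, against 9.25, 8.84 and 9.04 on the sh33 vehicle arrays. The groups lay 2.08 apart at their nearest arrays, and the log2 fold change was -2.44 ± 0.13 (SE, adjusted p = 6.91e-08 by limma). Row ILMN_1773758 had levels of 6.24, 6.22 and 5.97 with doxycycline, against 8.44, 8.32 and 8.44 with vehicle. Its log2 fold change was -2.26 ± 0.10 (adjusted p = 1.93e-08). The doxycycline levels were 0.184 and 0.209 times the vehicle levels in these 2 rows.

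Row ILMN_1660097 belonged to the brightest class. Its levels were 11.11, 10.91 and 10.78 with doxycycline, against 12.75, 12.78 and 12.92 with vehicle, and the groups were 1.64 apart. Its raw intensity was 2023, 2026 and 1775 units with doxycycline and 7851, 7430 and 8524 units with vehicle. The log2 fold change was -1.88 ± 0.14 (adjusted p = 1.6e-06) and was -1.85 in the authors' value table.

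The other 7 of the 10 lowest rows had log2 fold changes between -1.87 for ILMN_1753736 and -1.57 for ILMN_1758983. In ILMN_1753736 the doxycycline arrays were at 7.26, 6.99 and 7.29, and the 3 vehicle arrays were nearly equal, at 9.05, 9.03 and 9.05. In ILMN_1707881 the doxycycline arrays were at 7.43, 7.09 and 7.28 and the vehicle arrays at 9.02, 9.02 and 9.20, a log2 fold change of -1.81 ± 0.12 (adjusted p = 5.17e-07 by limma). Rows ILMN_1679920, ILMN_1768719, ILMN_1699087, ILMN_1915076 and ILMN_1758983 lay in class 5 and were alike in level, with sh33 doxycycline means from 5.15 to 5.60 and sh33 vehicle means from 6.89 to 7.23. Their log2 fold changes ran from -1.73 to -1.57, but in the authors' value table from -0.83 to -0.77, so their size rests on the background correction.

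Among increases, row ILMN_1745593 had levels of 7.09, 6.69 and 6.71 with doxycycline, against 4.93, 4.86 and 4.85 with vehicle. All 6 arrays detected it, and the log2 fold change was 1.95 ± 0.12 (adjusted p = 4.43e-07 by limma). Its raw intensity was 194, 190 and 183 units with doxycycline and 115, 113 and 116 units with vehicle, near the background, and the change was 0.81 in the authors' value table.

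Row ILMN_1801940 was the brightest of the 10 highest rows. Its levels were 11.70, 11.59 and 11.52 with doxycycline and 10.24, 10.10 and 10.16 with vehicle, a log2 fold change of 1.44 ± 0.10 (adjusted p = 6.78e-07) that was 1.38 in the authors' value table. Row ILMN_1715902 in class 9 had levels of 10.30, 10.03 and 10.27 with doxycycline and 8.94, 9.08 and 8.79 with vehicle, a log2 fold change of 1.27 ± 0.11. Both bright rows kept over a 2-fold increase without background correction.

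Row ILMN_1755658 had levels of 7.92, 7.92 and 8.12 with doxycycline and 6.63, 6.41 and 6.54 with vehicle, a log2 fold change of 1.46 ± 0.12 (adjusted p = 4.76e-06 by limma). Row ILMN_1679450 had levels of 6.98, 6.80 and 6.53 with doxycycline and 5.61, 5.32 and 5.45 with vehicle, a log2 fold change of 1.31 ± 0.19 (adjusted p = 0.00092). The groups did not overlap in either row, and the changes were 0.94 and 0.60 in the authors' value table.

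Replicates in 2 of the 10 highest rows were far apart under doxycycline. Row ILMN_1736180 had levels of 6.95, 6.50 and 6.03 with doxycycline (SD 0.46), against 5.07, 5.34 and 5.22 with vehicle (SD 0.13). Row ILMN_1770244 had levels of 8.15, 7.71 and 7.48 with doxycycline (SD 0.34), against 6.71, 6.52 and 6.68 with vehicle (SD 0.10). In contrast, row ILMN_2172588 had doxycycline levels of 8.32, 8.30 and 8.33, with vehicle at 7.09, 7.18 and 7.16. The groups were still separate in all 3 rows, with adjusted p values of 0.000354, 0.000638 and 1.61e-06 by limma.

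Few rows crossed the detection limit as a group. In 77 rows the signal was detected on 3 of 3 sh33 doxycycline arrays and 0 of 3 sh33 vehicle arrays (on), and in 97 rows on 0 of 3 and 3 of 3 (off), while 16370 rows were detected on all 6 arrays. The same count was 43 on and 105 off in the sh31 line, and between the uninduced lines 54 rows were detected on all sh33 vehicle and no sh31 vehicle arrays and 79 the other way. No test of these counts was made. With a detection p under 0.01 on the detected side and 0.05 or more on the other, 6 on rows and 11 off rows were left.

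The switching rows lay at the detection limit. Of the on rows, 76 of 77 were in classes 1 and 2, and so were all 97 off rows. The on rows had a median raw intensity of 108 units with doxycycline and 106 units with vehicle. The off rows had 102 units with doxycycline and 114 units with vehicle. Against the lowest detected signal of each array, or the row's own where that was higher, the median bound was at least 1.12-fold higher for on rows and at least 1.13-fold lower for off rows. These rows were chosen by detection in 1 group, so no count of calls among them is given.

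One on row stood outside this range. Row ILMN_1708304 had raw intensities of 185, 201 and 250 units on the sh33 doxycycline arrays and 102, 108 and 106 units on the sh33 vehicle arrays. Its detection p was 0 on each doxycycline array and 0.294, 0.0564 and 0.181 on the vehicle arrays. It was at least 5.31-fold higher with doxycycline. It passed the detection rule through the doxycycline arrays alone, so its adjusted p of 6.91e-08 by limma is a description and no support. No other on row had a bound of 1.5-fold or more, and the largest bound among off rows was at least 1.41-fold lower, for ILMN_1685124.

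Of the 77 on rows 1 switched on in the sh31 line too, and of the 97 off rows 3 switched off there too. Row ILMN_1708304 was detected on 3 of 3 sh31 doxycycline arrays and 1 of 3 sh31 vehicle arrays, and was higher on all 3 of the doxycycline arrays than on the vehicle arrays there.

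Replicates were farther apart with doxycycline than with vehicle. The median SD over 3 arrays was 0.14 for sh33 doxycycline and 0.12 for sh33 vehicle on the log2 scale, a ratio of the medians of 1.20. The SD was larger with doxycycline in 59.3% of rows. In class 1 the median SDs were 0.16 with doxycycline and 0.15 with vehicle (ratio 1.08), in class 5 they were 0.15 and 0.13 (1.22), and in class 10 they were 0.10 and 0.07 (1.31). In the sh31 line the median SDs were 0.14 with doxycycline and 0.13 with vehicle. The difference between groups was not tested, since each SD rests on 3 arrays.

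Pairs of arrays gave the same order by their medians, but not in every pair by the number of 2-fold rows. The median absolute difference between 2 sh33 doxycycline arrays was 0.15, 0.18 and 0.15 in the 3 pairs, against 0.14, 0.15 and 0.12 between 2 sh33 vehicle arrays. Rows that differed 2-fold or more between 2 doxycycline arrays numbered 8, 56 and 32, against 10, 7 and 3 between 2 vehicle arrays. Both high counts involved doxycycline replicate 3, and the pair without it, at 8, was below the highest vehicle pair, at 10. Between a doxycycline and a vehicle array, 57 to 146 rows differed 2-fold or more, and the highest counts, 146, 117 and 110, also involved doxycycline replicate 3.

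Without doxycycline replicate 3, 364 rows were called, 169 higher and 195 lower. In that fit 53 called rows reached 2-fold, 20 higher and 33 lower, so decreases still outnumbered increases among the largest changes. The sizes without this array were examined after the values had been seen. Leaving out vehicle replicate 1, 2 or 3 in turn left 348, 314 and 320 calls, and leaving out doxycycline replicate 1 or 2 left 437 and 440.

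Fewer of these rows were called in the sh31 line. In the sh31 comparison, 135 of the 20146 rows were called (0.67%), 20 higher and 115 lower. It shares no arrays with that of sh33, but the same model over all arrays gave each row its variance in both comparisons. A row with a low variance is therefore favoured in both, and the calls of the lines are not independent. How much this adds to the rows called in both lines was not tested. Called in the same direction in both lines were 75 rows, 68 lower and 7 higher, which is 12.8% of the sh33 list and 55.6% of the sh31 list. A further 4 rows were called higher in sh33 and lower in sh31.

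The largest decreases of sh33 were mostly decreases in sh31, and the largest increases were mostly not called higher there. Of the 34 rows that fell 2-fold or more in sh33, 23 were called lower in sh31 and 33 had a negative sh31 log2 fold change, with medians of -1.33 in sh33 and -0.82 in sh31. Of the 18 rows that rose 2-fold or more in sh33, 1 was called higher in sh31 and 3 were called lower. The 1 called higher was ILMN_1708304, which passed the detection rule through the sh33 doxycycline arrays alone. Of the 18, 11 had a positive sh31 log2 fold change, and the medians of the 18 were 1.26 in sh33 and 0.10 in sh31. The same sign in both lines was thus seen in 97.1% of these decreases and 61.1% of these increases, against 56.0% of all rows. Both sets of rows were chosen by their sh33 value, which favours a larger size in sh33. The test of the difference itself, sh33 minus sh31 in limma, called 13 of the 18 and 7 of the 34. Over 20 other settings and left-out arrays it called 10 to 15 of the increases and 5 to 12 of the decreases, with 15 and 31 rows left when detection on all 6 arrays was required. Over the same settings 1 to 3 of the increases were called lower in sh31 and 0 to 1 higher. Of the decreases, 21 to 24 were called lower in sh31.

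The lowest rows of sh33 were also lower in sh31. Row ILMN_1804611 had a log2 fold change of -2.86 in sh31, and its difference between lines was 0.42 ± 0.19 (SE, adjusted p = 0.477 by limma). Row ILMN_1773758 had -2.22 in sh31, a difference of -0.04 ± 0.15 (adjusted p = 0.966). Except ILMN_1758983, at -1.73, the other lowest rows had smaller sh31 changes, from -1.20 to -1.08, and none of their differences was called.

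The difference between the hairpins was called in 72 of the 20146 rows (0.357%), 47 with a more positive change in sh33 and 25 with a more negative one. Of these, 62 were called in sh33, 14 in sh31 and 2 in neither. Between the sh33 vehicle and sh31 vehicle arrays 1 row was called (0.00496%).

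Row ILMN_1763746 had the most positive difference. In the sh33 line its levels were 7.28, 7.16 and 6.93 with doxycycline and 5.42, 5.27 and 5.47 with vehicle, which did not overlap. In the sh31 line they were 4.65, 5.44 and 5.11 with doxycycline and 5.53, 5.67 and 5.40 with vehicle, which overlapped. The difference of the log2 fold changes was 2.20 ± 0.23 (SE, adjusted p = 0.000286 by limma). It was 0.98 in the authors' value table, so its size rests on the background correction.

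Rows ILMN_1741079 and ILMN_1708428 moved in opposite directions in the 2 lines. Row ILMN_1741079 had levels of 7.77, 7.60 and 7.86 with doxycycline and 6.59, 6.45 and 6.49 with vehicle in sh33. In sh31 its levels were 5.91, 5.65 and 6.08 with doxycycline and 6.45, 6.51 and 6.43 with vehicle. Both log2 fold changes were called, at 1.23 in sh33 (adjusted p = 1.22e-05 by limma) and -0.58 in sh31 (adjusted p = 0.022). For ILMN_1708428 they were 1.01 in sh33 (adjusted p = 0.000171) and -0.74 in sh31 (adjusted p = 0.00576).

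Row ILMN_3277715 had the most negative difference, -1.52 ± 0.17 (adjusted p = 0.000599 by limma). In sh33 its levels were 7.85, 7.98 and 7.74 with doxycycline and 9.37, 9.20 and 9.08 with vehicle, which did not overlap. In sh31 they were 9.67, 9.32 and 9.48 with doxycycline and 9.16, 9.46 and 9.37 with vehicle, which overlapped.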

How the data were processed

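The authors deposited an intensity per probe row and array on a linear scale, not normalized or background-subtracted, as seen from its values, with a detection p-value per row and array in the same deposited table. A second deposited table holds values on the log2 scale and equals the quantile-normalized log2 of those intensities to within 5.08e-09, with the lowest value of each of the 12 arrays missing. Scanner software and its version are not given in the sources used here.

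Intensities were background-corrected from the detection p-values, offset by 16, quantile-normalized and set on the log2 scale with neqc (limma 3.58.1, R 4.3.3). Level and log2 fold change in the text are on this offset scale, where dim rows show less than their true change. A linear model with a mean for each of 4 groups used all 12 arrays (limma's lmFit and eBayes, 8 residual and 6.96 prior degrees of freedom). A row counted as called below a Benjamini-Hochberg adjusted p of 0.05 over 20146 rows. Among the kept rows of that second table, 1 lacked the value of 1 sh33 doxycycline array and was fitted without it. The precision is limited by the number of arrays.

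Named are the 10 highest and 10 lowest called rows detected on all 6 arrays, the 5 on and 5 off rows with the largest bound, the largest called row per brightness class, the 4 most positive and 4 most negative differences between lines, and the rows under the symbol of the target. The text gives fewer. The rows, the rule and the tests were chosen with earlier results of these data known. Alternatives were the authors' table, normexp with an offset of 50, median centring, other detection filters, an intensity trend, the 6 sh33 arrays alone, a replicate block, and leaving out each array. The scripts were tested on simulated data. Probe sequences were not used here.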

Additional observations from a re-analysis of the deposited data

Results flagged for a closer look

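The change under doxycycline differed between the sh33 and sh31 lines in 72 rows, by the limma test of the difference itself. The most positive differences, sh33 minus sh31 on the log2 scale, were 2.20 for ILMN_1763746, 1.86 for ILMN_1745593, 1.81 for ILMN_1741079 and 1.75 for ILMN_1708428. The most negative were -1.52 for ILMN_3277715, -1.13 for ILMN_1698894, -1.13 for ILMN_1669362 and -1.12 for ILMN_3291614. In the authors' value table, in the same order, the positive differences were 0.98, 0.79, 1.04 and 1.48. The negative ones were -1.25, -0.46, -1.08 and -0.86 there.

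Row ILMN_3291614 had a log2 fold change of 0.02 in sh33 and 1.14 in sh31. Its levels were 8.52, 8.71 and 8.46 in sh33 doxycycline, 8.40, 8.53 and 8.68 in sh33 vehicle, 8.54, 8.83 and 8.74 in sh31 doxycycline, and 7.48, 7.66 and 7.53 in sh31 vehicle, so the 3 sh31 vehicle arrays stood below all others. It was also the 1 row called between the vehicle arrays, with a difference of 0.98 (sh33 minus sh31, adjusted p = 0.00613 by limma).

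Outside the detection rule, 5 of the 27961 remaining rows were called when all 48107 rows were tested, 3 higher and 2 lower with doxycycline. The arrays that detected them numbered at most 2 of 6.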

How the results depend on the processing

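The number of rows called for sh33 was 586, against 920 in the authors' value table and 894 with a normexp offset of 50. It was 431 with the 6 sh33 arrays alone and 314 to 440 without 1 array. For the difference between lines it was 72, against 170 in the authors' table, 170 with normexp, 150 with an intensity trend, and 45 to 72 without 1 array. For sh31 it was 135, against 207, 205, 87 with median centring, and 82 to 111 without 1 array. The replicate numbers matched sh33 doxycycline with sh33 vehicle weakly (correlations of deviations 0.25, 0.084 and 0.096, each best with its own number), and the labels do not say that numbers mark shared cultures. With the number as a replicate block, 351 rows were called for sh33 (45.3% higher), 37 for the difference and 82 for sh31.

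Of the called rows 42.7% were higher, against 45% in the authors' table, 45.4% with normexp, 49.0% with median centring, 44.8% without a detection filter, 45.5% with the 6 sh33 arrays alone, and 41.7% to 46.5% without 1 array. Over all rows 50.5% were positive, against 59.1% with median centring, 50.3% with detection on 3 of 12 arrays, 50.9% without a filter, and 50.1% to 50.6% without 1 array. The median absolute log2 change of 0.12 was 0.0588 in the authors' table, 0.0801 with normexp, 0.134 with median centring, and 0.123 to 0.136 without 1 array. The ratio of class 6 to class 10 was 0.982, 1.30 and 1.52 in the first 3 of these and 1.62 to 1.69 without 1 array. The stricter detection limits left 6 on rows and 11 off rows, and leaving out 1 array gave 131 to 255 on and 157 to 271 off, since fewer arrays must agree.

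Of 630 values for named rows, 605 stayed on their side of the threshold with their direction, 17 lost and 8 gained the call, and 0 changed sign. The 20 highest and lowest rows were called in all 14 settings. The difference for ILMN_1698894 lost its call in 9 of 19 settings.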
